A study of Arabidopsis thaliana with 8 samples.

Results

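The pifq line of Arabidopsis thaliana lacks 4 transcription factors of the phytochrome-interacting kind (PIF1, PIF3, PIF4, PIF5), and its transcriptome was set against that of the wild type Col-0 in seedlings kept in darkness for 5 days. The members of the comparison are 2 pifq and 2 Col-0 libraries, chosen by the genotype in their labels, of 8 libraries in all, and every gene code of the count files was considered (33518 codes, of which 21221 passed the filter on low counts). All seedlings grew on MS medium with brassinazole (BRZ), which blocks the synthesis of brassinosteroids, the plant's steroid growth hormones, so both genotypes carry this treatment. All lines have the Col-0 background. The other 4 libraries are the lines bzr1-1D, in which a dominant allele keeps the brassinosteroid-responsive factor BZR1 active, and pifq;bzr1-1D, which joins that allele to the loss of the PIFs. The labels name no tissue below the whole etiolated seedling, and they are silent on whether both libraries per genotype were grown apart. A p-value here therefore reflects the spread of these libraries alone, possibly a technical one.

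PIFs are basic helix-loop-helix transcription factors that gather in darkness and hold the seedling in its etiolated form, with a long hypocotyl, a closed apical hook and undeveloped plastids. In light, activated phytochromes bind them and mark them for degradation, and the seedling turns green. A dark-grown seedling without these PIFs is known to look partly as if it had been in light, with a short hypocotyl and open cotyledons. The comparison therefore asks which transcripts the PIFs hold up or keep down in darkness when brassinosteroids are scarce.

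The Col-0 libraries held 34388943 and 20548213 gene counts and the pifq libraries 25769922 and 24643463, within a range of 16109238 to 34388943 over all 8. Levels are given as CPM, counts scaled to a common library total after TMM normalization. Differences are log2 fold changes of pifq over Col-0 (n = 2 per genotype). The value after ± is the size of the change divided by the square root of edgeR's F statistic, with the spread estimated over all 8 libraries. It stands in for a standard error (SE). It can be too small where a genotype has few counts, as for IRT1 with 4 and 5 counts in Col-0. A gene is called where edgeR's quasi-likelihood test gave a Benjamini-Hochberg adjusted p under 0.05. A count of 0 allows up to 3 counts, which is 0.0872 to 0.186 CPM depending on the library, and this floor covers counting error only. The 3 markers of etiolated seedlings listed for a check of the material, PORA, PHYA and HLS1, were well above this floor in all 4 libraries. This shows only that they were detected, and all 3 were called lower in pifq. In whole seedlings, fewer cells of a type and less RNA per cell cannot be told apart.

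Of the 21221 genes tested, 13267 were called (62.5%), 6789 of them higher in pifq (32.0%) and 6478 lower (30.5%), so a call by itself says little about any gene list, and each list is read against these shares and against the median of all genes tested, 0.0053. Most calls were small. A difference under 1.5-fold applied to 55.7% of the called genes, 1437 genes were called with 2-fold or more higher (6.77%), 1249 with 2-fold or more lower (5.89%), and 609 with 4-fold or more in either direction (2.87%). Among these 609, 258 were higher and 351 lower.

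The targeted genes come first. PIF1 had 45.9 and 45.6 CPM in Col-0 and 21.5 and 22.4 CPM in pifq, a log2 fold change of -1.06 ± 0.06. PIF3 had 203 and 200.0 CPM in Col-0 and 114 and 109 CPM in pifq (-0.85 ± 0.04), and PIF5 had 35 and 33.9 CPM in Col-0 and 11 and 11.8 CPM in pifq (-1.6 ± 0.07). PIF4 went the other way, with 13.9 and 14.6 CPM in Col-0 and 25 and 26.1 CPM in pifq (0.85 ± 0.07, edgeR adjusted p = 1.53e-12). In all 4 genes the pifq libraries lay apart from the Col-0 libraries, as they did in 80.3% of all genes tested. A count per gene hides where on the transcript its reads lay, so these levels do not tell whether a gene is disrupted, and the genotype names are those of the labels.

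The rest of the PIF family did not move as one. PIL1, a related helix-loop-helix gene known as a rapid shade marker, had 55 and 53.2 CPM in Col-0 and 1.91 and 1.76 CPM in pifq (-4.88 ± 0.09), and PIL2, another relative, had 89.4 and 93.9 CPM in Col-0 and 9.38 and 9.73 CPM in pifq (-3.26 ± 0.06). PIF7, a shade-responsive member that the line keeps, had 0.139 and 0.282 CPM in Col-0 and 1.36 and 1.31 CPM in pifq (2.76 ± 0.38), and UNE10, also known as PIF8, had 0.669 and 0.705 CPM in Col-0 and 4.55 and 3.84 CPM in pifq (2.61 ± 0.21). PIL1 and PIL2 fell together, while PIF7 and UNE10 rose from under 1 CPM and stayed low in pifq.

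**Figure D1:**
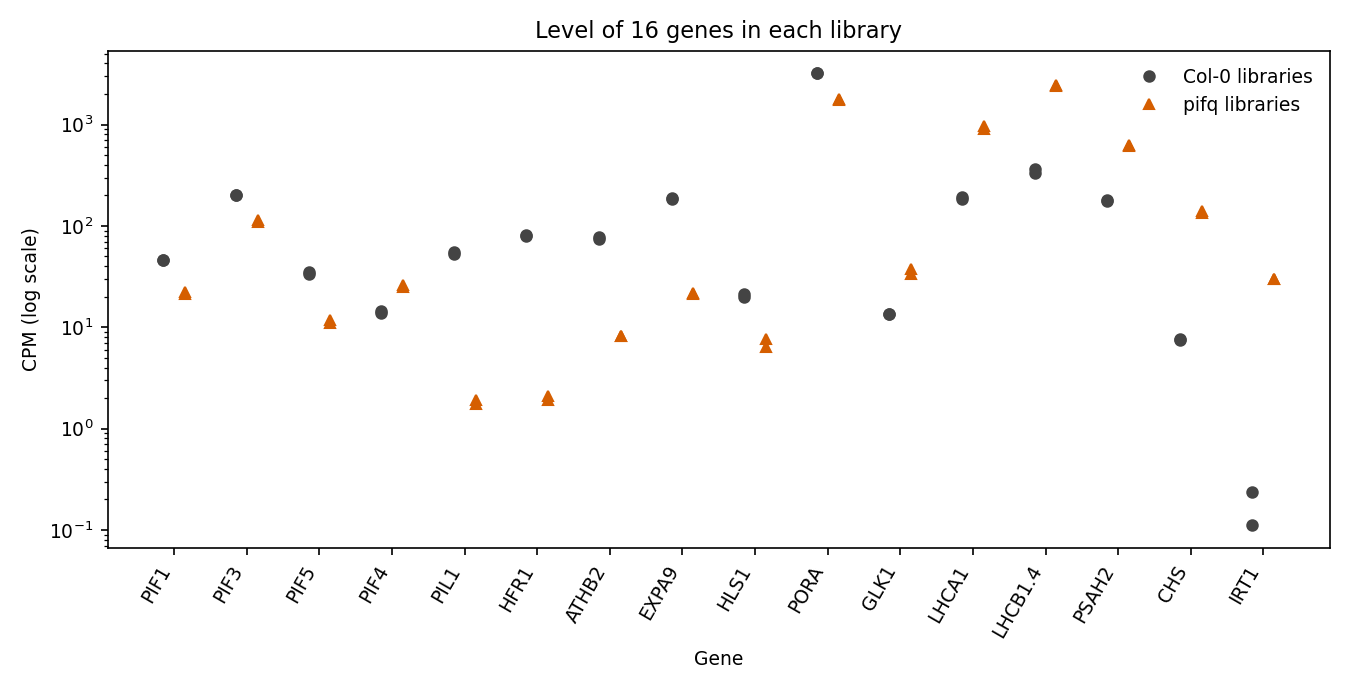
The level of 16 genes in CPM (vertical axis, log scale) is plotted for each of the 2 Col-0 libraries (dark circles) and the 2 pifq libraries (orange triangles). PIF1, PIF3 and PIF5 are lower and PIF4 higher in pifq, PIL1 and HFR1 fall to about 2 CPM, and the antenna genes LHCA1 and LHCB1.4 lie above their Col-0 levels.

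Shade and PIF target genes, a list of genes known to be induced by shade or bound by PIFs, were lower in pifq in 17 of 20 cases, with 2 higher, 1 not called and a median of -1.23. HFR1, an atypical helix-loop-helix protein that restrains the PIFs, had 79 and 81.1 CPM in Col-0 and 2.1 and 1.92 CPM in pifq (-5.31 ± 0.08). ATHB2, a homeodomain factor of the shade response, had 74.4 and 77.3 CPM in Col-0 and 8.29 and 8.22 CPM in pifq (-3.2 ± 0.06). ST2A, a sulfotransferase that acts on a jasmonate derivative, had 192 and 195 CPM in Col-0 and 21 and 19.3 CPM in pifq (-3.26 ± 0.05). In each of these genes both pifq libraries lay well under both Col-0 libraries. ATHB4, a relative of ATHB2, went from a mean of 13.8 to 3.58 CPM (-1.93 ± 0.12), and CKX5, an enzyme that breaks down cytokinin, from 23.2 to 7.95 CPM (-1.53 ± 0.09). FHY1 (-0.91 ± 0.04) and FHL (-2.57 ± 0.1), which carry phytochrome A into the nucleus, also fell, as did BIM1 (-0.77 ± 0.04), a partner of brassinosteroid factors. The exceptions were the homeodomain gene HAT1, which rose by 0.45 ± 0.07, YUC9, of auxin synthesis, with 0.223 and 0.329 CPM in Col-0 and 1.05 and 0.409 CPM in pifq (1.47 ± 0.46), and RVE7, a clock-related gene with 128 and 126 CPM in Col-0 and 128 and 129.5 CPM in pifq that was not called. The YUC9 call was lost without pifq replicate 1 (log2 fold change 0.63) and without Col-0 replicate 1 (1.15). XTH15, IAA19, IAA29, YUC8 and YUC9 also stand in the lists of their families.

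Helix-loop-helix genes that tune cell elongation fell in 11 of 15 tested cases (2 higher, 2 not called, median -0.43). They hold growth-promoting and growth-restraining members, and both kinds fell. PRE6, a promoting member, had 20.9 and 20.2 CPM in Col-0 and 5.99 and 6.46 CPM in pifq (-1.73 ± 0.08), and PRE5, another, had 79 and 45 counts in Col-0 and 3 and 1 in pifq. Of the restraining members, IBH1 had 35.1 and 34.4 CPM in Col-0 and 3.66 and 4.17 CPM in pifq (-3.15 ± 0.11) and AIF3 had 217 and 231 CPM in Col-0 and 87.5 and 86.8 CPM in pifq (-1.36 ± 0.04). The brassinosteroid-responsive BEE1 (-0.43 ± 0.08), BEE2 (-0.4 ± 0.04) and BEE3 (-0.52 ± 0.07) and HBI1 (-0.41 ± 0.04) fell by less. AIF1 (0.63 ± 0.13) and BNQ2 (1.92 ± 0.39), also known as PRE2, rose, the second from under 1 CPM, and PRE3 was not called. PRE1, with 15 counts or fewer in each library, was called without Col-0 replicate 2 (2.66) or pifq replicate 1 (1.92) and not with all libraries.

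Wall-loosening genes divided by family. Of 27 xyloglucan endotransglucosylase (XTH) genes tested, which cut and rejoin a wall polymer, 16 fell, 6 rose and 5 were not called, with a median of -1.34. XTH15, the most abundant, had 5522 and 5615 CPM in Col-0 and 1664 and 1670.4 CPM in pifq (-1.74 ± 0.03), and XTH24 had 878 and 888 CPM in Col-0 and 271 and 263 CPM in pifq (-1.73 ± 0.04). The summed level of the family went from 7651 and 7783 CPM in Col-0 to 3001 and 3009 CPM in pifq, so the fall of XTH15 made up most of it. XTH7 went against the family, with 17.4 and 16.8 CPM in Col-0 and 83.3 and 86.3 CPM in pifq (2.3 ± 0.06). Expansins, proteins that loosen the wall at acid pH, had 7 of 16 lower and 8 higher with 1 not called. EXPA9 had 183 and 187 CPM in Col-0 and 21.8 and 21.3 CPM in pifq (-3.1 ± 0.05), and EXPA11 had 192 and 202 CPM in Col-0 and 38.6 and 39.6 CPM in pifq (-2.33 ± 0.04), while EXPA8 had 5.91 and 6.06 CPM in Col-0 and 15.9 and 15.4 CPM in pifq (1.39 ± 0.09). The abundant members EXPA9, EXPA11 and EXPA4 (-1.78 ± 0.05) fell and the members that rose had under 50 CPM in pifq, such as EXPA1 (1.35 ± 0.1), EXPA6 (0.96 ± 0.06) and EXPA10 (1.27 ± 0.11). The summed level of expansins was 629 and 656 CPM in Col-0 and 260.1 and 255 CPM in pifq. XTH17, XTH18 and XTH19 are near-identical copies whose reads may have been split between them.

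Most water channel and cellulose genes fell. Of 19 aquaporins, 16 fell and 3 rose, with a median of -0.80. TIP1;2, a vacuolar channel and the most abundant, had 3332 and 3537 CPM in Col-0 and 1954 and 1995 CPM in pifq (-0.8 ± 0.04), and the plasma membrane channel PIP2;1 had 571 and 602 CPM in Col-0 and 253 and 261 CPM in pifq (-1.19 ± 0.04). PIP1;4 (0.61 ± 0.05), PIP2;5 (0.7 ± 0.14) and PIP2;8 (0.53 ± 0.09) rose. In the list for primary wall cellulose synthesis, 7 of 9 fell and 1 rose, with a median of -0.43. CESA1, a subunit that the primary wall enzyme needs, had 859 and 804 CPM in Col-0 and 506 and 489.5 CPM in pifq (-0.74 ± 0.04), CESA3, another such subunit, had 706 and 674 CPM in Col-0 and 462 and 472 CPM in pifq (-0.56 ± 0.04), and CESA5 rose (0.84 ± 0.05).

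Auxin genes differed by group, with most tested Aux/IAA genes lower and most tested synthesis genes higher. Of 23 Aux/IAA genes tested, early auxin-induced repressors of the auxin response, 16 fell, 2 rose and 5 were not called, with a median of -0.48, or -0.34 with IAA6, which had 0 counts in pifq, at its bound. IAA17 had 64.4 and 66.5 CPM in Col-0 and 19.8 and 20.6 CPM in pifq (-1.69 ± 0.05), IAA29 had 21.9 and 24.3 CPM in Col-0 and 7.63 and 7.98 CPM in pifq (-1.55 ± 0.08) and IAA19 had 5.71 and 5.07 CPM in Col-0 and 1.28 and 1.1 CPM in pifq (-2.19 ± 0.19). IAA2 (-1.0 ± 0.04), IAA3 (-0.96 ± 0.06) and IAA7 (-0.71 ± 0.04) fell by less, and IAA12 (0.29 ± 0.07) and IAA27 (0.15 ± 0.05) rose, the second no longer called without Col-0 replicate 2 (0.13), pifq replicate 1 (0.15) or pifq replicate 2 (0.14). SAUR genes, many but not all of which promote expansion growth, fell in 32 of 66 tested cases, rose in 6 and were not called in 28. Their median was -0.67, or -0.63 with the 2 members at 0 counts in a genotype at their bound. SAUR36 had 36.2 and 37.2 CPM in Col-0 and 16 and 15.3 CPM in pifq (-1.22 ± 0.06), and SAUR22 had 7.22 and 5.45 CPM in Col-0 and 0.856 and 0.9 CPM in pifq (-2.89 ± 0.2), against 2.48 and 2.16 CPM in Col-0 and 8.4 and 8.51 CPM in pifq for SAUR14 (1.84 ± 0.14). SAUR19 to SAUR24 are near-identical and uncertain one by one. Among the GH3 enzymes, which conjugate auxin and other hormones to amino acids, 2 of 11 fell (18.2%), 3 rose (27.3%) and 6 were not called. Both shares were under those of all genes tested, 30.5% lower and 32.0% higher. GH3.5 fell most (216 and 219.8 CPM in Col-0 and 79.1 and 75.8 CPM in pifq, -1.49 ± 0.04). The highest change in this list was larger, at 5.16.

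Auxin synthesis genes rose in 7 of 11 tested cases and fell in 2, with a median of 0.82. CYP79B3 had 14.5 and 16.8 CPM in Col-0 and 36.3 and 35.5 CPM in pifq (1.22 ± 0.07) and CYP79B2 had 3.43 and 3.38 CPM in Col-0 and 11 and 12.2 CPM in pifq (1.77 ± 0.11), both enzymes that turn tryptophan into an oxime used for glucosinolates and auxin. TAA1, the first enzyme of the main auxin route, had 10.7 and 10.5 CPM in Col-0 and 18.7 and 19.1 CPM in pifq (0.83 ± 0.08). The second step of that route was divided, with YUC8 (-0.56 ± 0.09) and YUC6 (-1.06 ± 0.17) lower and YUC2 (0.82 ± 0.17) and YUC4 (1.01 ± 0.34) higher. YUC4, at about 1 CPM or less, lost its call without Col-0 replicate 1 (0.88) or pifq replicate 1 (0.85). Of 11 auxin transport genes, 5 fell (45.5%, against 30.5% of all genes tested) and 3 rose (27.3%, against 32.0%). The efflux carriers PIN2 (-1.11 ± 0.07) and ABCB19 (-0.72 ± 0.04) and the kinase PID (-1.17 ± 0.13) fell, and PIN3 (0.26 ± 0.04) and PIN4 (0.27 ± 0.04) rose.

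The ethylene and apical hook list fell in 16 of 21 tested cases, with 2 higher, 3 not called and a median of -0.57 (-0.49 with ACS5, at 0 counts in pifq, at its bound). HLS1, an acetyltransferase-like protein needed to form the hook, had 19.8 and 21.1 CPM in Col-0 and 6.42 and 7.65 CPM in pifq (-1.54 ± 0.09). Of the receptors, ERS1 (-0.86 ± 0.04), ERS2 (-1.14 ± 0.06) and ETR2 (-0.63 ± 0.05) fell, ETR1 fell by less (-0.26 ± 0.06) and EIN4 was slightly higher (0.16 ± 0.06), a call lost without Col-0 replicate 2 (0.13), pifq replicate 1 (0.17) or pifq replicate 2 (0.15). The signalling genes CTR1 (-0.69 ± 0.04) and EIN3 (-0.66 ± 0.04) fell too. The list held synthesis genes, receptors, negative regulators and activators, and members of each class fell.

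Gibberellin, brassinosteroid and cytokinin genes followed no single direction. Of 8 gibberellin receptors and DELLA repressors, 5 fell and none rose, with GAI at 53.1 and 55 CPM in Col-0 and 25.5 and 26.1 CPM in pifq (-1.06 ± 0.05), RGA at 125 and 125 CPM in Col-0 and 74 and 78.9 CPM in pifq (-0.71 ± 0.04) and the receptor GID1C at -0.49 ± 0.06. In gibberellin synthesis and inactivation, 4 of 12 fell (33.3%, near the 30.5% of all genes tested), 1 rose and 7 were not called. GA20OX2, an enzyme of a late synthesis step, fell most (51.4 and 52.4 CPM in Col-0 and 30.4 and 30.1 CPM in pifq, -0.78 ± 0.05). Brassinosteroid synthesis and inactivation genes fell in 10 of 12 cases and rose in 1, with a median of -0.32. ROT3, a hydroxylase of the pathway, had 81.8 and 79.4 CPM in Col-0 and 44.9 and 43.9 CPM in pifq (-0.86 ± 0.04), the inactivating SOB7 fell by 0.72 ± 0.06 on the log2 scale, and DWF4, which brassinosteroids repress by feedback, had 106 and 109 CPM in Col-0 and 97.4 and 96.4 CPM in pifq (-0.15 ± 0.04). Of 8 type-A response regulators, genes that cytokinin induces quickly, 5 rose and 1 fell (median 0.55). ARR7 had 9.09 and 8.5 CPM in Col-0 and 21.3 and 22 CPM in pifq (1.29 ± 0.08), ARR6 had 5.69 and 5.68 CPM in Col-0 and 14.1 and 13.3 CPM in pifq (1.27 ± 0.1), and ARR8 fell, with 52.8 and 53.7 CPM in Col-0 and 27.2 and 26.1 CPM in pifq (-1.0 ± 0.05).

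**Figure D2:**
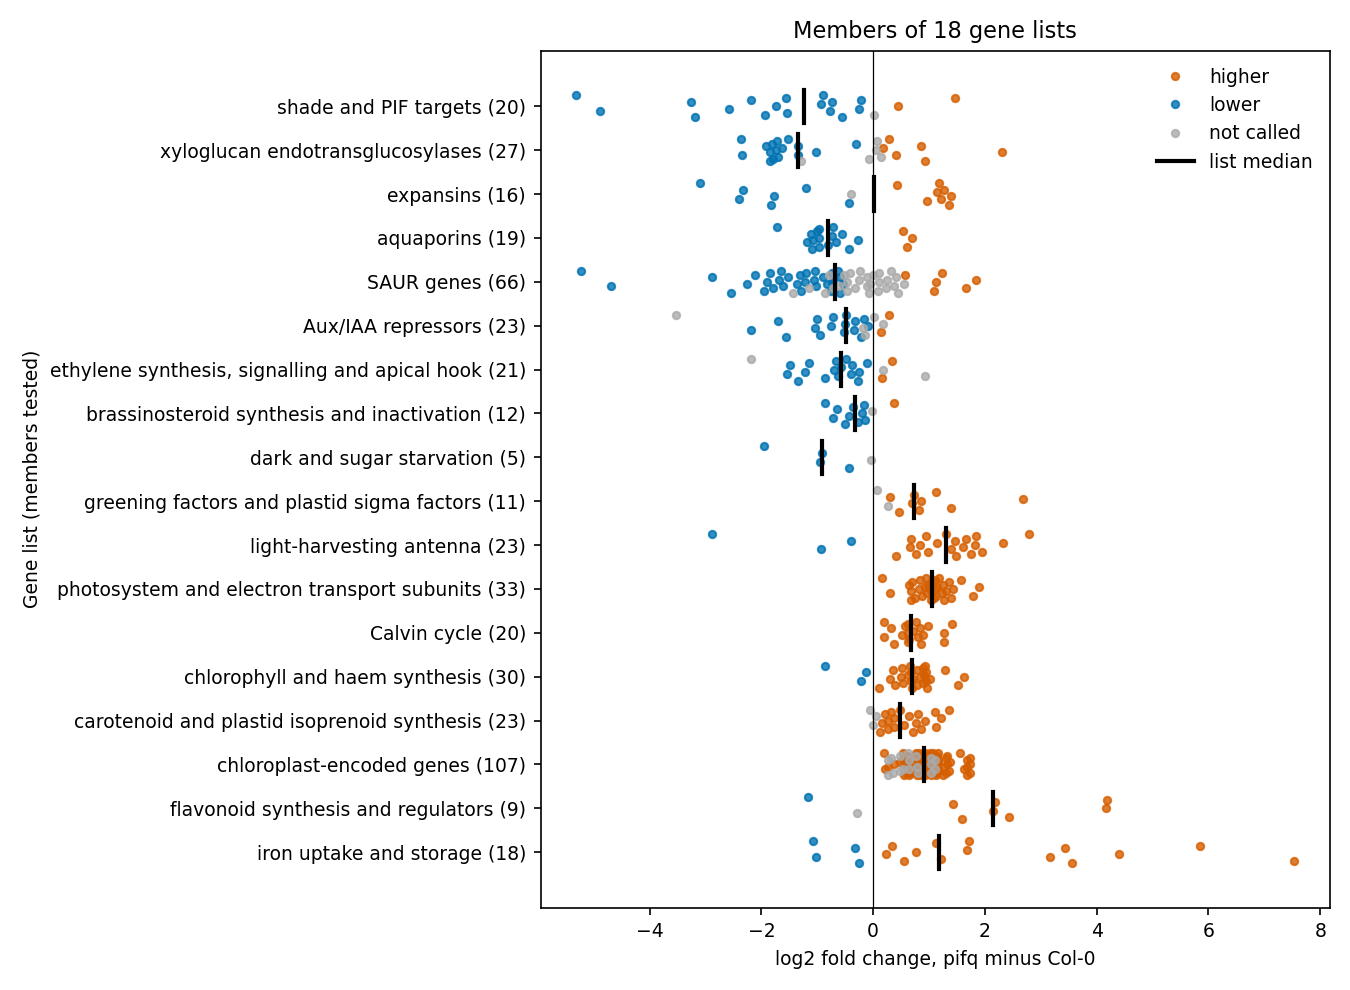
The log2 fold change of pifq over Col-0 (horizontal axis) is plotted for each tested member of 18 gene lists (rows, with the number tested in brackets), coloured by its call, with a black bar at the list median. Growth, shade and hormone lists lie mostly left of 0, except the expansins, which lie on both sides. Plastid lists lie mostly right of 0.

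Photosynthesis genes rose together. All 33 nuclear genes for photosystem and electron transport subunits were called higher, against 32.0% of all genes, with a median of 1.05. PSAH2, a small subunit of photosystem I, had 181 and 177 CPM in Col-0 and 613 and 623 CPM in pifq (1.79 ± 0.03), PSBO2, of the oxygen-evolving complex, had 94.9 and 100.4 CPM in Col-0 and 362 and 366 CPM in pifq (1.9 ± 0.05), and ATPD, of the chloroplast ATP synthase, had 161 and 165 CPM in Col-0 and 415 and 422 CPM in pifq (1.36 ± 0.03). PETC (0.3 ± 0.04) and FD1 (0.16 ± 0.04) rose least, and FD1 was not called without Col-0 replicate 1 (0.08). The 33 changes ranged from 0.16 to 1.90, and 19 of them were 2-fold or more.

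Of 23 light-harvesting antenna genes, whose proteins bind chlorophyll around the photosystems, 20 rose and 3 fell (median 1.31). LHCB1.4 had 336 and 367 CPM in Col-0 and 2414 and 2436 CPM in pifq (2.79 ± 0.04), LHCA1 had 185 and 194 CPM in Col-0 and 911 and 971 CPM in pifq (2.32 ± 0.04), and LHCB3 had 581 and 600.2 CPM in Col-0 and 2269.9 and 2285 CPM in pifq (1.95 ± 0.04). The most abundant member, LHCB1.3, had 11802 and 12699.6 CPM in Col-0 and 30027 and 30616 CPM in pifq (1.31 ± 0.03). Antenna transcripts together summed to 27678 and 29528 CPM in Col-0 and 73946 and 75233 CPM in pifq. The 3 that fell were the stress-linked relatives ELIP2, with 5.71 and 5.92 CPM in Col-0 and 0.7 and 0.859 CPM in pifq (-2.89 ± 0.19), and ELIP1, with 3.57 and 3.66 CPM in Col-0 and 1.79 and 2 CPM in pifq (-0.93 ± 0.18), and the minor antenna gene LHCB4.3 (-0.4 ± 0.15). LHCB4.3 was not called without Col-0 replicate 1 (-0.42), Col-0 replicate 2 (-0.38) or pifq replicate 1 (-0.28). LHCB1 and LHCB2 genes are near-identical copies, so their single values are uncertain.

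All 20 Calvin cycle genes rose, with a median of 0.68. GAPA2 had 328 and 325 CPM in Col-0 and 788 and 789.5 CPM in pifq (1.27 ± 0.04), HCEF1, a chloroplast fructose bisphosphatase, had 91.6 and 102 CPM in Col-0 and 224 and 238 CPM in pifq (1.26 ± 0.04), and RCA, which activates Rubisco, had 843 and 846 CPM in Col-0 and 1580.5 and 1545 CPM in pifq (0.89 ± 0.04). The most abundant, RBCS1A for the Rubisco small subunit, had 6490.4 and 6439.7 CPM in Col-0 and 8033 and 8152 CPM in pifq (0.32 ± 0.03). In photorespiration, 11 of 14 rose and 3 fell (median 0.60), with PGLP1, its first enzyme, at 31.5 and 30.2 CPM in Col-0 and 82.7 and 82.3 CPM in pifq (1.41 ± 0.05) and the catalase gene CAT2 lower at 551 and 545 CPM in Col-0 and 413 and 414 CPM in pifq (-0.41 ± 0.03). The other genes that fell there were AGT1 (-0.21 ± 0.04), an aminotransferase, and AT1G80380 (-0.5 ± 0.03), a glycerate kinase gene. RBCS genes share near-identical sequence.

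Pigment pathways followed. In chlorophyll and haem synthesis 27 of 30 genes rose and 3 fell (median 0.70). GUN4, an activator of the magnesium chelatase, had 65.5 and 69.6 CPM in Col-0 and 190.1 and 194 CPM in pifq (1.51 ± 0.04), and HEMA1, which starts the pathway, had 294 and 291 CPM in Col-0 and 506 and 503 CPM in pifq (0.79 ± 0.03). The 3 protochlorophyllide oxidoreductases, which carry out the light-dependent step, differed. PORA, the form of etiolated tissue, had 3190.3 and 3198 CPM in Col-0 and 1771 and 1740.1 CPM in pifq (-0.86 ± 0.03), PORB had 2491 and 2474 CPM in Col-0 and 2669 and 2646 CPM in pifq (0.1 ± 0.03), and PORC, the form of green tissue, had 32.3 and 33.6 CPM in Col-0 and 105 and 97.6 CPM in pifq (1.63 ± 0.05). In each case the libraries of the genotypes did not overlap, as in 80.3% of all genes tested. HY1 (-0.13 ± 0.04), a haem oxygenase that feeds phytochrome's chromophore, and FC1 (-0.21 ± 0.06), a ferrochelatase, fell slightly. The small changes of PORB (0.09 without pifq replicate 1), HY1 (-0.09 without Col-0 replicate 2 and -0.11 without pifq replicate 1) and FC1 (-0.16 without Col-0 replicate 1) lost their calls in those fits. Carotenoid and plastid isoprenoid genes rose in 20 of 23 cases with none lower (median 0.49), led by PSY, the entry enzyme to carotenoids, with 99.1 and 97.9 CPM in Col-0 and 228 and 229.9 CPM in pifq (1.22 ± 0.04). MCT (1.36 ± 0.09) and CMK (1.12 ± 0.07) of the isoprenoid route also rose, while HDR, its last step, had 410.1 and 407 CPM in Col-0 and 406 and 413 CPM in pifq and was not called, like CCD1 and CCD4, which cleave carotenoids.

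Factors of plastid development rose with these genes. Of 11 greening and plastid sigma factors, 9 rose and none fell (median 0.74). GLK1, a factor that activates photosynthesis genes, had 13.7 and 13.6 CPM in Col-0 and 33.7 and 38 CPM in pifq (1.39 ± 0.07), GLK2 had 38.1 and 38.8 CPM in Col-0 and 69.1 and 70.5 CPM in pifq (0.86 ± 0.05), and the GATA factor GNL had 0.641 and 0.752 CPM in Col-0 and 4.44 and 4.42 CPM in pifq (2.69 ± 0.21). SCA3, the plastid's phage-type RNA polymerase, had 60.7 and 59.4 CPM in Col-0 and 129 and 133 CPM in pifq (1.12 ± 0.04), and SIG2, a sigma factor of its bacterial-type polymerase, had 66.8 and 67.7 CPM in Col-0 and 122 and 116 CPM in pifq (0.83 ± 0.04), while SIG5 and SIG6 were not called, the second apart from the fit without pifq replicate 2 (0.12). Of 9 plastid import genes, 7 rose, with TOC75, the outer membrane channel, at 101 and 97.1 CPM in Col-0 and 186 and 181 CPM in pifq (0.89 ± 0.04) and TIC110 of the inner membrane at 260.1 and 256 CPM in Col-0 and 461 and 478 CPM in pifq (0.86 ± 0.04). TOC132 (-0.03 ± 0.04) and TOC120 (0.05 ± 0.06) were not called.

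Chloroplast-encoded genes rose in 89 of 107 tested cases with none lower and a median of 0.91. They took 0.464% and 0.646% of the counts in the Col-0 libraries and 0.998% and 1.14% in the pifq libraries, so the genotypes did not overlap but the 2 Col-0 libraries differed from each other. ATCG00120 had 28.9 and 30.1 CPM in Col-0 and 72.8 and 71.5 CPM in pifq (1.3 ± 0.05) and ATCG00480 had 35.8 and 43.7 CPM in Col-0 and 85.7 and 88.6 CPM in pifq (1.16 ± 0.06). How the plastid share moved with the nuclear lists above was not tested.

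Light signalling genes themselves were mixed. Of 13 photoreceptors, 7 fell (53.8%, against 30.5% of all genes tested) and 5 rose (38.5%, against 32.0%). PHYA, the phytochrome of etiolated seedlings, had 1782 and 1740.1 CPM in Col-0 and 944 and 981 CPM in pifq (-0.87 ± 0.04), PHYB had 122 and 114 CPM in Col-0 and 74.1 and 70.6 CPM in pifq (-0.71 ± 0.04), and the blue light receptor PHOT1 had 559 and 545 CPM in Col-0 and 319 and 322 CPM in pifq (-0.78 ± 0.03). PHOT2, its high-light relative, rose, with 70.9 and 69 CPM in Col-0 and 126 and 126 CPM in pifq (0.85 ± 0.04), and CRY1 was not called while CRY2 fell (-0.52 ± 0.03). Of 6 genes of the COP1 and SPA group, 3 rose and 2 fell (33.3%, near the 30.5% of all genes tested). Among these genes, which break down light-promoting factors in darkness, COP1 had 32 and 29 CPM in Col-0 and 28.1 and 29.8 CPM in pifq and was not called, and SPA3 (0.58 ± 0.07) and SPA1 (0.46 ± 0.07) rose. Of 13 HY5 and B-box factors tested, 5 rose and 7 fell. HY5, the main activator of light responses, had 32.9 and 29 CPM in Col-0 and 24.1 and 23.1 CPM in pifq (-0.4 ± 0.06), and its partner gene HYH had 2.9 and 2.87 CPM in Col-0 and 7.86 and 7.89 CPM in pifq (1.45 ± 0.13). BBX14 (171 and 176 CPM in Col-0 and 387 and 394 CPM in pifq, 1.17 ± 0.03), BBX15 (1.59 ± 0.05) and BBX25 (2.38 ± 0.16) rose, BBX23 (102 and 104 CPM in Col-0 and 31.6 and 27.6 CPM in pifq, -1.79 ± 0.05) and BBX28 (-1.53 ± 0.05) fell, and BBX16 had 0 and 0 counts in Col-0 and 21 and 28 in pifq.

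Flavonoid genes were mostly higher among those that could be tested. Of 9 members tested, 7 rose, 1 fell and 1 was not called, with a median of 2.14. CHS, the entry enzyme, had 7.5 and 7.61 CPM in Col-0 and 140.4 and 133 CPM in pifq (4.18 ± 0.07), CHI, the next, had 2.95 and 3.15 CPM in Col-0 and 13.8 and 13 CPM in pifq (2.14 ± 0.12), and FLS1, which makes flavonols, had 0.892 and 1.13 CPM in Col-0 and 17 and 18.6 CPM in pifq (4.17 ± 0.14). MYB111, a regulator of flavonol genes, had 4.26 and 4.09 CPM in Col-0 and 19 and 19 CPM in pifq (2.18 ± 0.1), and the glycosyltransferase UGT78D1 had 4.52 and 4.46 CPM in Col-0 and 24.6 and 23.8 CPM in pifq (2.43 ± 0.09). The other 8 members did not pass the count filter, among them DFR, with 6 and 2 counts in Col-0 and 8 and 2 in pifq, and LDOX, with 1 and 2 counts in Col-0 and 2 and 7 in pifq, enzymes of the anthocyanin branch. TT7, a flavonoid hydroxylase, fell (3.62 and 3.05 CPM in Col-0 and 1.6 and 1.43 CPM in pifq, -1.16 ± 0.2), and PAP1, a regulator of anthocyanin genes, had 1.14 and 0.892 CPM in Col-0 and 0.856 and 0.859 CPM in pifq and was not called. Of 15 phenylpropanoid genes, 8 rose (53.3%, against 32.0% of all genes tested) and 4 fell (26.7%, against 30.5%), with a median of 0.17. 4CL3, which serves flavonoids, had 1.92 and 1.69 CPM in Col-0 and 7.82 and 8.02 CPM in pifq (2.11 ± 0.15). CAD5 of lignin synthesis was lower (-0.86 ± 0.06). Glucosinolate genes had 6 of 9 tested members higher and 3 lower, and MYB28, a regulator of the methionine-derived kind, had 2.45 and 2.07 CPM in Col-0 and 8.75 and 9 CPM in pifq (1.94 ± 0.14).

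Iron genes were mostly higher. Of 18 tested, 14 rose and 4 fell, with a median of 1.18. Their summed level was slightly lower in pifq, at 1488 and 1496 CPM against 1626 and 1582 CPM in Col-0. IRT1, the root iron transporter, had 0.111 and 0.235 CPM in Col-0 and 30.1 and 29.9 CPM in pifq (7.53 ± 0.17), the highest fold change among well-expressed genes, FRO2, the ferric reductase that works with it, had 1.25 and 1.41 CPM in Col-0 and 14.2 and 14.2 CPM in pifq (3.43 ± 0.13), and OPT3, which moves iron in the phloem, had 49.98 and 52.7 CPM in Col-0 and 162 and 167 CPM in pifq (1.69 ± 0.04). The regulatory genes BHLH101 (0.139 and 0.235 CPM in Col-0 and 3.46 and 4.17 CPM in pifq, 4.41 ± 0.31) and PYE (1.22 ± 0.09) rose, and BHLH38 had 0 and 1 counts in Col-0 and 35 and 30 in pifq. FIT, a factor that activates IRT1 and FRO2, changed least (7.58 and 8.03 CPM in Col-0 and 9.26 and 9 CPM in pifq, 0.23 ± 0.1), and its call was lost without Col-0 replicate 1 (0.18), pifq replicate 1 (0.21) or pifq replicate 2 (0.25). Ferritin genes, which store iron, were not alike: FER1 had 263 and 265 CPM in Col-0 and 129.8 and 119.9 CPM in pifq (-1.08 ± 0.04) and FER4 had 54.7 and 54.6 CPM in Col-0 and 28 and 25.8 CPM in pifq (-1.02 ± 0.05), while FER3 rose (0.76 ± 0.05). The summed level of root and root hair markers, a tissue where IRT1 and FRO2 act, was 2059 and 2074 CPM in Col-0 and 4519 and 4653 CPM in pifq, almost all of it PYK10, a glucosidase of endoplasmic reticulum bodies (1954 and 1967 CPM in Col-0 and 4442 and 4576 CPM in pifq, 1.2 ± 0.03). Of the other 13 markers, none at 0, 7 fell and 6 were not called, SCR among the first (68 and 66.5 CPM in Col-0 and 47.3 and 46.8 CPM in pifq, -0.52 ± 0.05) and PLT1 among the second. Without pifq replicate 1, 4 of them fell, and by DESeq2 2 fell. The part of root tissue in the iron result was not tested.

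Starvation genes fell. Of 5 dark and sugar starvation genes, 4 fell and 1 was not called (median -0.92). ASN1, an asparagine synthetase induced in darkness, had 1755 and 1734 CPM in Col-0 and 453 and 445 CPM in pifq (-1.96 ± 0.04), SEN1 had 885 and 895 CPM in Col-0 and 455 and 466 CPM in pifq (-0.95 ± 0.04), and DRM1, a dormancy-linked gene, had 1229.8 and 1283 CPM in Col-0 and 641 and 688 CPM in pifq (-0.92 ± 0.04). For seed oil use, 10 of 13 genes fell and 2 rose with a median of -0.28, while their summed level was 3678 and 3713 CPM in Col-0 and 3964 and 4020 CPM in pifq. ACX1, of fatty acid breakdown, had 435 and 435 CPM in Col-0 and 291 and 282 CPM in pifq (-0.6 ± 0.03), while ICL, the glyoxylate cycle's isocitrate lyase, rose (911 and 968 CPM in Col-0 and 1387 and 1457 CPM in pifq, 0.6 ± 0.04), and so did PCK1 (0.25 ± 0.03). The largest fall there was that of CSY3, a peroxisomal citrate synthase, which is described with the PIF4 locus. Of 4 nitrate genes tested, the reductase genes NIA1 (374 and 371 CPM in Col-0 and 835 and 839 CPM in pifq, 1.17 ± 0.04) and NIA2 (0.6 ± 0.04) and NIR1 (0.77 ± 0.04) rose and the transporter gene NRT1.1 fell (-0.66 ± 0.04). Of 16 clock genes, 8 fell (50%, against 30.5% of all genes tested), 2 rose (12.5%, against 32.0%) and 6 were not called. PRR7 was among the genes that fell (121 and 116 CPM in Col-0 and 69.5 and 74 CPM in pifq, -0.73 ± 0.04). Of 9 defence and heat genes tested, 4 rose (44.4%, against 32.0% of all genes tested) and 1 fell (11.1%, against 30.5%). PR2 rose from 1 count in each Col-0 library to 15 and 19 in pifq.

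Markers of cell types differed by list, and their part in the results above was not tested. Stomatal lineage genes rose in 6 of 8 cases with none lower, SPCH, which starts the lineage, with 1.06 and 1.32 CPM in Col-0 and 4.86 and 4.74 CPM in pifq (2.05 ± 0.18), and TMM, a receptor of the lineage, with 4.1 and 4.42 CPM in Col-0 and 11 and 10.6 CPM in pifq (1.36 ± 0.11). Their summed level was 16.1 and 17.5 CPM in Col-0 and 33.5 and 35.0 CPM in pifq. Xylem markers fell in 5 of 7 cases and rose in 1, summing to 68.98 and 65.5 CPM in Col-0 and 56.7 and 52.7 CPM in pifq, and 3 fell without Col-0 replicate 1 and 2 without pifq replicate 2. Of 6 markers of dividing cells, PCNA1 rose (1.39 and 1.55 CPM in Col-0 and 4.05 and 3.89 CPM in pifq, 1.45 ± 0.19) and 5 were not called. Shoot meristem and leaf primordium markers had ANT higher (8.19 and 7.23 CPM in Col-0 and 13.7 and 13.3 CPM in pifq, 0.79 ± 0.09), STM (6.86 and 6.25 CPM in Col-0 and 3.77 and 2.74 CPM in pifq, -1.02 ± 0.15) and KNAT1 (-0.33 ± 0.06) lower and AIL6 not called, while WUS had 0 and 0 counts in Col-0 and 2 and 1 in pifq and CLV3 4 and 6 counts in Col-0 and 5 and 5 in pifq and were not tested. The 1 trichome marker tested, GL3, was not called. No tested marker of these lists had 0 counts in all 4 libraries.

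Seed and embryo markers were low and divided, with 8 of 12 lower and 4 higher. Their summed level was 185 and 180.4 CPM in Col-0 and 44.3 and 45.1 CPM in pifq. CRU3, a cruciferin storage protein, had 85.9 and 83.3 CPM in Col-0 and 15.5 and 16 CPM in pifq (-2.43 ± 0.06), CRA1, another, had 80.4 and 79.9 CPM in Col-0 and 23.4 and 24.2 CPM in pifq (-1.75 ± 0.05), and SESA5, an albumin, had 8.53 and 6.44 CPM in Col-0 and 0.389 and 0.327 CPM in pifq (-4.4 ± 0.23). SESA1 to SESA4 rose from 5 counts or fewer in each Col-0 library, for example SESA2 with 0.111 and 0.235 CPM in Col-0 and 0.934 and 1.35 CPM in pifq. SESA1, with 5 counts or fewer in each of the 4 libraries, lost its call in each fit without 1 of them. SESA1 to SESA4 are near-identical copies.

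The genes with the largest changes, among those called, with at least 10 CPM on the higher side and no overlap of libraries, lay partly outside these lists. After IRT1, the highest were AT2G44220, with 0.0836 and 0.188 CPM in Col-0 and 10.04 and 10.9 CPM in pifq (6.36 ± 0.24), and AT4G13575, with 0.53 and 0.235 CPM in Col-0 and 26.1 and 28.8 CPM in pifq (6.01 ± 0.16). AT4G22485, of the lipid-transfer protein family, had 1.92 and 3.15 CPM in Col-0 and 87.3 and 77.3 CPM in pifq (5.11 ± 0.1), and its neighbour AT4G22505 rose as well (5.28 ± 0.24). The chitinase family gene AT2G43620 (5.01 ± 0.19), AT3G05727 (5.38 ± 0.24), MSRB6, a methionine sulfoxide reductase (4.72 ± 0.2), TLL1, annotated as a triacylglycerol lipase (2.2 and 2.82 CPM in Col-0 and 57.3 and 59 CPM in pifq, 4.57 ± 0.09), and KAT5, a thiolase of fatty acid breakdown (0.502 and 0.376 CPM in Col-0 and 9.96 and 11.5 CPM in pifq, 4.54 ± 0.21), complete the 10 highest.

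Among the 10 lowest, CSY3, AT2G42780, AT2G42750, AT2G42170 and AT2G43590 lie near PIF4 and are described next, and HFR1 and PIL1 were given above. The others were AT5G28145, with 327 and 327 CPM in Col-0 and 2.65 and 2.21 CPM in pifq (-7.07 ± 0.07), DMT2, a DNA methyltransferase, with 176 and 168 CPM in Col-0 and 2.26 and 2.62 CPM in pifq (-6.14 ± 0.08), and AT4G08990, of the same family, with 34.3 and 33.3 CPM in Col-0 and 0.661 and 0.573 CPM in pifq (-5.76 ± 0.13). Their means were also low in the line bzr1-1D, at 1.07 CPM for AT5G28145, 8.39 for DMT2 and 1.68 for AT4G08990, and in pifq;bzr1-1D, at 2.85, 1.68 and 0.672, so in these 3 genes Col-0 stood apart from all the other lines, whose comparisons with it share its libraries. DMT2 and AT4G08990 are related in sequence and may share reads. The other 4 DNA methyltransferase genes listed changed by less than 2-fold.

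Genes with large changes lay close together around PIF4. Within 50 tested genes to each side of PIF4, in the gene order of TAIR10.1, 10 of 100 were called with 4-fold or more, all 10 lower in pifq, against 2.87% of all genes tested. Around PIF1 there were 2 of 100. Around PIF3 there was 1, NAS3, a nicotianamine synthase gene, lower by 3.64 ± 0.5 on the log2 scale. Around PIF5 there were 3, AT3G59250 (2.04 ± 0.13) and AT3G59340 (3.92 ± 0.16) higher and AT3G58450 (-2.47 ± 0.44) lower. Within 25 genes to each side of PIF4 there were 8 of 50, and within 100 to each side 16 of 200. By chromosome, the share with 4-fold or more was 3.65% on chromosome 2, where PIF1 and PIF4 lie, 2.68% on 1, 2.55% on 3, 3.86% on 4 and 2.3% on 5.

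The 5 neighbouring tested genes AT2G42750, AT2G42760, AT2G42770, AT2G42780 and CSY3, which lie 24 to 20 tested genes before PIF4, were almost without counts in pifq. CSY3 had 3412 and 1986 counts in Col-0 and 19 and 5 in pifq (-7.61 ± 0.12). AT2G42750, a DNAJ-domain gene, had 1675 and 1008 counts in Col-0 and 8 and 7 in pifq (-7.27 ± 0.13). AT2G42780 had 819 and 478 counts against 5 and 1, AT2G42770 255 and 157 against 0 and 2, and AT2G42760 96 and 67 against 1 and 0. A lost gene and a silent one cannot be told apart from counts. The actin family gene AT2G42170, 72 tested genes before PIF4, had 126 and 131 CPM in Col-0 and 1.21 and 0.818 CPM in pifq (-6.97 ± 0.09), and AT2G42100, another such gene 79 before it, had 276 and 198 counts against 4 and 1, a gene chosen after its values were seen. Right after PIF4 came ATPMEPCRD, a pectin methylesterase inhibitor gene, with 144 and 156 CPM in Col-0 and 28.5 and 29.2 CPM in pifq (-2.37 ± 0.05), and IBH1, the growth-restraining gene given above. The other genes of the 10 were LSH10 (-3.62 ± 0.2), AT2G42560, of the late embryogenesis abundant kind (-2.94 ± 0.36), and AT2G42990, a lipase-like gene (-2.95 ± 0.35). Further on, the chitinase family genes AT2G43590 (16 and 17.1 CPM in Col-0 and 0.272 and 0.491 CPM in pifq, -5.42 ± 0.18) and AT2G43620 (0.446 and 0.376 CPM in Col-0 and 12.9 and 14.5 CPM in pifq) went in opposite directions.

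The run of 5 genes was as low in the second line that carries the mutations. CSY3 averaged 98.4 CPM in the bzr1-1D line and 0.423 in pifq;bzr1-1D, and AT2G42750 had 55.1 and 0.185. Whether nearness to PIF4 or the loss of PIF function accounts for these genes cannot be told apart here, which also applies to IBH1 and to PAR1 (-0.93 ± 0.05), both counted in lists above. The densest windows of the same width in the genome, with calls in either direction, held 15 around CYP71A20 and 13 around AT4G22560 on chromosome 4. There were 13 around AT3G30885 on chromosome 3. On chromosome 2 there were 13 around AT2G42485, before PIF4, and 12 around RTFL8. The window of AT2G42485 overlaps that of PIF4, so these 2 windows are not separate. These windows were the highest of a scan, while the PIF4 window was set by the locus.

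**Figure D3:**
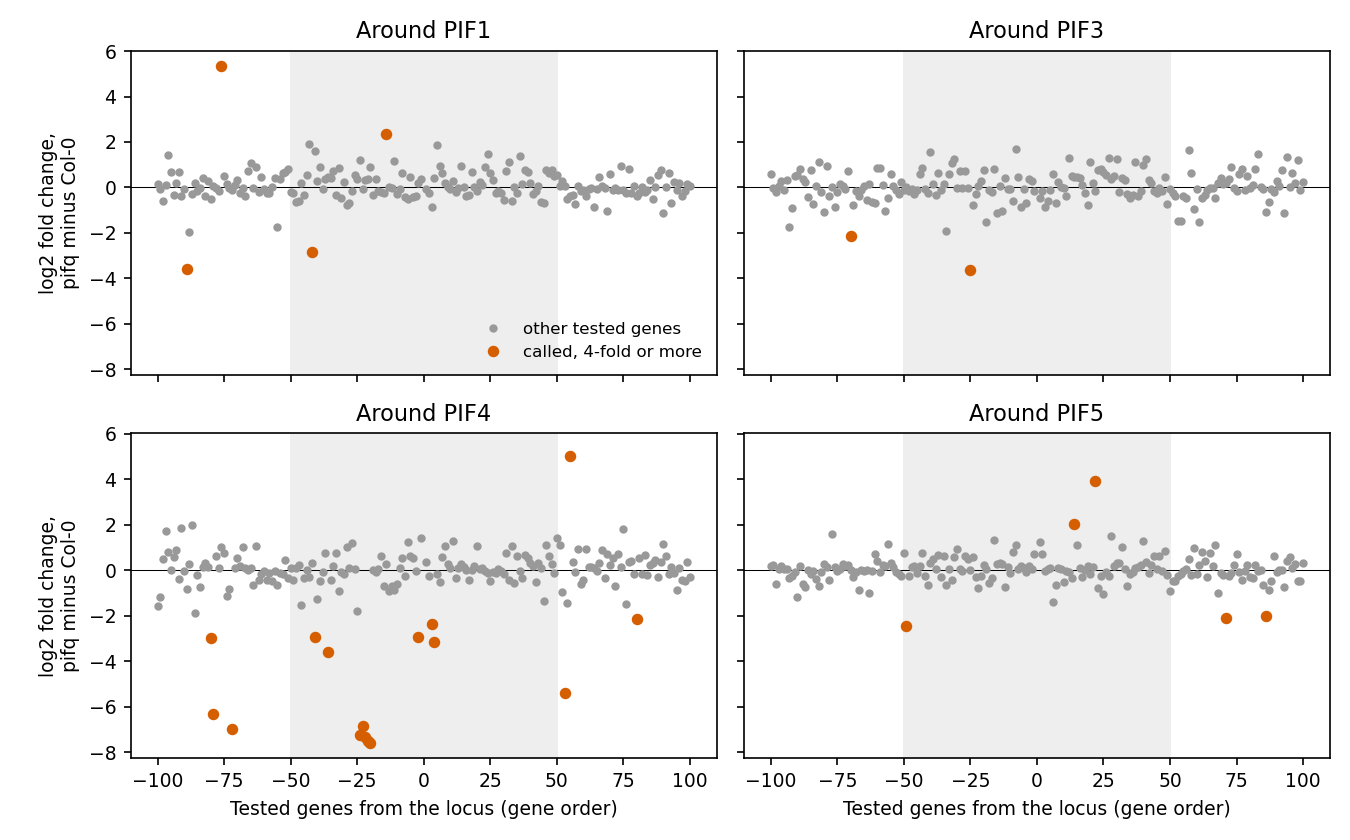
The log2 fold change of pifq over Col-0 (vertical axis) is plotted against the distance from each of the 4 PIF genes, counted in tested genes along the chromosome (horizontal axis, with 50 to each side shaded). Orange points are genes called with 4-fold or more. Around PIF4 a tight run near -7 stands out 24 to 20 genes before the locus.

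The loss of PIFs was also measured as pifq;bzr1-1D against bzr1-1D, whose 4 libraries entered the comparison above only through the shared estimate of spread. There, 13873 of 21221 genes (65.4%) passed the test, 33.8% in the higher and 31.6% in the lower direction, and 8139 genes were called in the same direction in both backgrounds against 1679 in opposite directions. A test of the difference between the effects, the interaction, called 10363 genes (48.8%). The photosystem list had 32 of 33 higher there (median 0.76), the antenna list 18 of 23 higher (1.15), the shade list 15 of 20 lower (-1.71) and the XTH family 19 of 27 lower (-1.19). The size of the effect still differed for many of their members, since the interaction was called for 26 of 33 photosystem genes, 17 of 23 antenna genes, 13 of 20 shade genes and 19 of 27 XTH genes. HLS1 had -1.53 ± 0.09 there, an interaction of 0.0 ± 0.13 that was not called, and IRT1 had 7.22 ± 0.2, also not called (-0.31 ± 0.7). EXPA9 had -3.4 ± 0.05, and its small interaction was called (-0.3 ± 0.08).

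The interaction was called for 48.8% of all genes tested. In the flavonoid list it was called for 7 of 9 tested members. The starvation list had 5 of 5 and the seed and embryo list 9 of 12. Such counts were not particular to these lists, since the photosystem list had 26 of 33 and the antenna list 17 of 23. CHS rose by 4.18 ± 0.07 in pifq but by 1.27 ± 0.17 where bzr1-1D was present, an interaction of -2.91 ± 0.21 with an edgeR adjusted p of 2.34e-13, and FLS1 by 4.17 ± 0.14 and 0.8 ± 0.29. ASN1 fell by 1.96 ± 0.04 on the log2 scale in pifq and had -0.27 ± 0.03 with bzr1-1D (interaction 1.69 ± 0.05, edgeR adjusted p = 1.02e-23). LHCB2.3, an antenna gene that rose by 1.65 ± 0.04, had -0.07 ± 0.04 there. KAT5 lost its rise, with means of 0.668 CPM in bzr1-1D and 0.404 in pifq;bzr1-1D. IAA19 averaged 5.39 CPM in the wild type and 34.8 in bzr1-1D, and its fall was larger there (-4.57 ± 0.13, interaction -2.39 ± 0.3). The water channel TIP2;2, with means of 152 and 601 CPM, did the same (-3.6 ± 0.04, interaction -2.62 ± 0.06). The storage genes CRU3, CRA1 and SESA5 reversed. CRU3 was at 0.547 CPM in bzr1-1D and 42.3 in pifq;bzr1-1D (6.27 ± 0.13, interaction 8.7 ± 0.13), and 11 of the 12 seed and embryo markers were called higher.

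**Figure D4:**
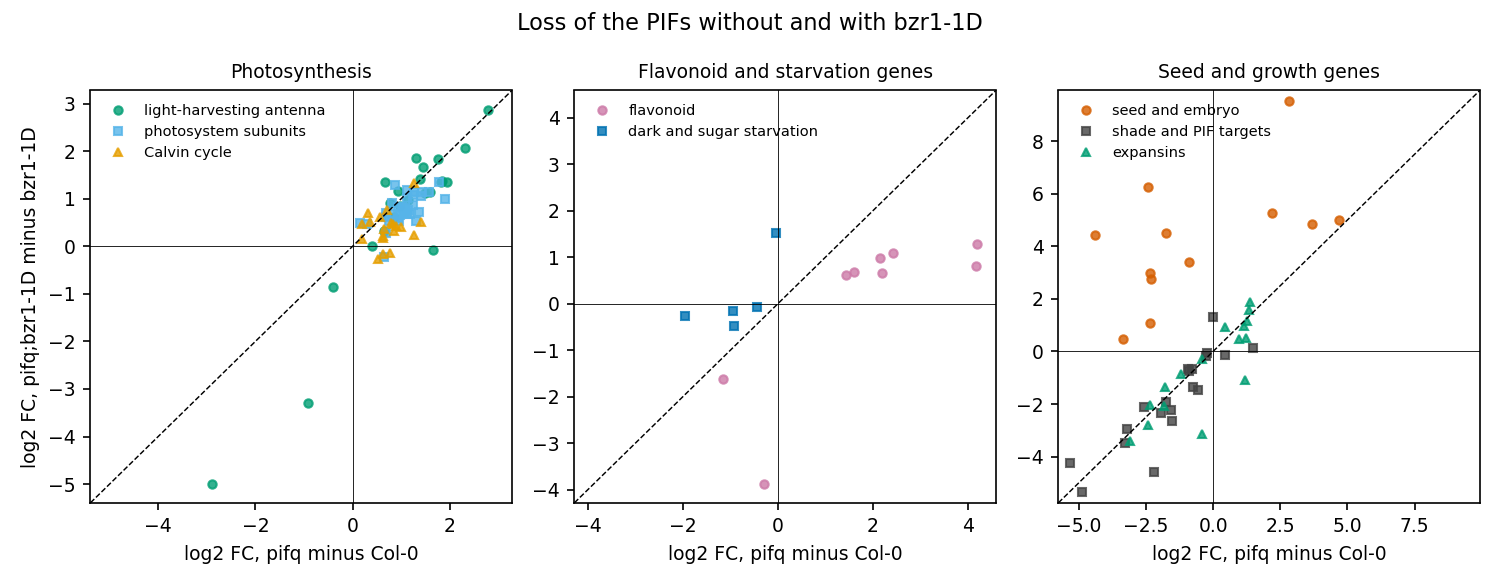
The log2 fold change of pifq over Col-0 (horizontal axis) is plotted against that of pifq;bzr1-1D over bzr1-1D (vertical axis), 1 point per tested list member, with a dashed line of equality, for photosynthesis lists, for flavonoid and starvation lists, and for seed, shade and expansin lists. CHS lies well under the line and CRU3 well above it.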

How the data were processed

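RNA of whole etiolated seedlings was sequenced from 4 genotypes with 2 libraries each. The authors deposited raw counts of reads per gene, and their processing notes name TopHat, HTSeq and the build TAIR9, without versions. No source used here gives the strand setting or what was done with multiply mapped reads. Gene names and gene order came from TAIR10.1 through the locus codes, with no coordinates used, and 32709 of 33518 codes matched. Summary rows of the counter held 2.68% to 4.27% (no feature) and 1.95% to 2.08% (ambiguous) and were left out.

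Counts were fitted for all 8 libraries with a mean per genotype in edgeR 4.0.16 (R 4.3.3, filterByExpr, TMM, quasi-likelihood F test, 4 residual degrees of freedom), and p-values were adjusted by Benjamini-Hochberg over all 21221 genes tested. The scripts were tested on simulated data. Alternatives included DESeq2 1.42.0, other scaling and filters, equal depth and leaving out each library. The members and gene lists were chosen with earlier results of these data known. Genes were named by a rule: the PIF family, the 10 highest and 10 lowest changes with 10 CPM or more, in each list the 6 smallest p-values at most and exceptions to its direction (only some of them printed), and strong calls near the PIF genes. Other members named as examples were chosen after their values were seen.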

Additional observations from a re-analysis of the deposited data

Results flagged for a closer look

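The effect of losing the PIFs differed between the wild type and the bzr1-1D background in 10363 genes by edgeR's interaction test. Among the named genes, 6 were called in opposite directions in the backgrounds with an interaction of 2-fold or more. CRU3 had an interaction of 8.70, CRA1 of 6.27 and SESA5 of 8.83, each lower without the PIFs in the wild type background and higher without them in the bzr1-1D background. AT2G42560 (6.96) and AT5G28145 (8.48) had the same pair of directions. Each of these 5 genes was low in bzr1-1D, with means of 0.547 CPM for CRU3, 0.706 for CRA1, 0.608 for SESA5, 0.0202 for AT2G42560 and 1.07 for AT5G28145. PCNA1 went the other way (-2.23), higher in pifq and lower in pifq;bzr1-1D, each against its own background.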

How the results depend on the processing

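The number of genes called between pifq and Col-0 (13267) was 13318 in a fit of the 4 libraries alone, 13364 with DESeq2's size factors, 13295 with no filter on low counts, 11110 with 5 CPM or more required in 2 libraries, 10505 by DESeq2, 11377 at equal depth, 13019 without the genes near the PIF loci, and 11556 to 13450 leaving out 1 library at a time, where a lone library is assumed to vary like the other genotypes. The interaction count (10363) was 7229 by DESeq2, 8321 at equal depth and 9005 to 9949 leaving out 1 library.

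The strict filter of 5 CPM, which removes genes from testing, left 1553 of the 2686 calls of 2-fold or more and 261 of the 609 of 4-fold or more. Under it the calls were 4 for auxin synthesis (higher), 9 for iron (higher), 1 for defence and heat (higher), 3 for root and root hair (lower), 2 for the stomatal lineage (higher), 3 for seed and embryo (lower), 0 for dividing cells (higher; 1 at an adjusted p under 0.05 without the filter, PCNA1), 18 for SAUR genes (lower) and 57 for chloroplast-encoded genes (higher). DESeq2 called 2 root markers and 3 xylem markers lower, and equal depth 3 xylem markers. Leaving out 1 library, 4 to 7 root markers and 2 to 5 xylem markers were lower, and the cause was not tested. Strong calls around PIF1 numbered 1 within 25 genes and 4 within 100, and within 100 genes there were 2 around PIF3, 16 around PIF4 and 5 around PIF5.

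Of 3799 repeats over 241 named genes, 3739 kept direction and call, 43 lost the call, 4 gained it and 13 changed sign, all in genes not called. These were RVE7 (-0.0092 with DESeq2's size factors and -0.00902 by DESeq2) and HDR (-0.00159 in the 4 libraries alone, -0.0217 with DESeq2's size factors and -0.0217 by DESeq2). Leaving out 1 library at a time, the log2 fold change of HDR ran from -0.0102 to 0.0132, of TOC132 from -0.073 to 0.0159, of PLT1 from -0.3004 to 0.15, of CCD4 from -0.124 to 0.0142, of AIL6 from -0.0101 to 0.187 and of PRE1 from -0.0223 to 2.66. The same numbers in different genotypes did not pair the libraries, since the correlations of their deviations ran from -0.037 to 0.050, and a fit with a replicate block called 13276 genes. Counts of a few reads per library limit what can be said of the lowest genes.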
